A study of Homo sapiens with 2 samples.

Results

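Histone genes encode the proteins around which DNA is wound. They were taken from the count table by symbol: all genes named as members of the H1, H2A, H2B, H3 and H4 families (H1 followed by a number, and H2AC, H2BC, H3C and H4C followed by a number), and 8 named variant genes. This gave 81 of 62699 genes, of which 73 form the class called replication-dependent here and 8 are variants (H2AX, H2AZ1, H2AZ2, H2AJ, MACROH2A1, MACROH2A2, H3-3A and H3-3B). The replication-dependent class holds 10 H1, 17 H2A, 18 H2B, 13 H3 and 15 H4 genes, and 55 of the 73 lie on chromosome 6. The symbols, not the data, chose the members.

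RNA came from HCC1954, an established HER2-positive breast cancer cell line. One library carried the genotype label ASO-NC and the other ASO-1235, by their names a control antisense oligonucleotide and one against the long non-coding RNA LINC01235. Both were made from RNA captured by its poly(A) tail, fragmented and copied with random hexamers. The sources used here do not give the dose, the length of treatment or the number of cultures behind each library, and the title of the ASO-1235 library begins with Si in place of ASO. With 1 library per group there is no spread between replicates, so a difference below is one between these libraries, its 95% interval covers counting error only, and no p-value is given.

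Replication-dependent histone genes supply the bulk of new nucleosomes in S phase. Their mRNAs normally carry no poly(A) tail: they end just after a short stem-loop that is bound by the stem-loop binding protein SLBP, and they are degraded when DNA synthesis stops. Variant histone genes are mostly transcribed outside S phase as well, give polyadenylated mRNAs, and place specialised histones at particular sites. A poly(A) library therefore samples the classes unequally, and for the first class it reads mainly the transcripts that acquired a tail downstream of the stem-loop. The linker gene H1-10 falls in the first class by its symbol, although it is known to give polyadenylated mRNA outside S phase.

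The stem-loop is shown for 1 or more members with each form found, since it is the element that sets the classes apart. It was searched in GENCODE 29 transcripts (GRCh38) as a run of 16 bases after the stop codon. Capitals mark the paired stem, 6 bases on each side, and lower case the loop of 4 bases.
H2AC6, chr6:26124669-26124684, plus strand: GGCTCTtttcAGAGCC
H2BC21, chr1:149886188-149886203, minus strand: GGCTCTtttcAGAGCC
H2BC5, chr6:26158587-26158602, plus strand: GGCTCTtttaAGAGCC
H4C8, chr6:26285131-26285146, minus strand: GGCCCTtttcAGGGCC
H4C14, chr1:149833032-149833047, plus strand: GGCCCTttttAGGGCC
H2AX, chr11:119094898-119094913, minus strand: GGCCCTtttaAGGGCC
The sequence of H2AC6 and H2BC21 was found in 15 members and that of H2BC5 in 4, all of them H2A, H2B or H3 genes. The sequence of H4C8 was found in 5 members and that of H4C14 in 3, all H4 genes. In all, 27 of the 69 replication-dependent members in GENCODE 29 had the element. Most of the others could not show it: 37 members had a model with at least 40 bases after the stop codon, and the 27 are all among these. Of the variants 1 of 8 had it, H2AX, a gene known to make both a stem-loop mRNA and a polyadenylated one. Over all 58676 genes with transcripts, members included, 48 (0.082%) held the same pattern at any place in a transcript. That search was wider than the one for members, which kept only matches after the stop codon.

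The libraries held 48092494 counts (ASO-NC) and 37916307 counts (ASO-1235). Levels are counts per 1000000 (CPM) on library sizes scaled by trimmed mean of M values (TMM), and a ratio is ASO-1235 over ASO-NC. A gene was tested for size when it had at least 1 CPM of the library total in at least 1 library, and it was called when it differed by at least 1.5-fold with a 95% interval that left out 1. Of 14352 genes tested, 919 (6.40%) were called higher and 423 (2.95%) lower in ASO-1235. These calls split 68.5% higher with TMM and 81.3% higher when the libraries were scaled by their total count. LINC01235 had 1337 counts in ASO-NC and 0 in ASO-1235, at least 373-fold lower against a floor of 3 counts in that library. The epithelial markers of the line were present, with ERBB2, which encodes HER2, at 4860 and 4628 CPM and KRT8, a simple-epithelium keratin, at 1802 and 1613 CPM, and 0 of 7 such markers were called. Of immune markers, 1 of 6 was tested, LYZ at 98 and 44 counts, a ratio of 0.537 (0.367 to 0.774) that was called lower, and PTPRC, the pan-leukocyte marker, had 0 and 8 counts. COL1A1 was the fibroblast marker tested (1 of 5) and VWF the endothelial one (1 of 3). Counts were even more often than the 50% that single reads would give, in 67.5% and 64% of genes with 1 to 1000 counts, so both mates of a pair may have been counted, and an interval on halved counts is given where it differs in what it includes.

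All 8 variant genes were above 5 CPM in both libraries, whereas 17 of 73 replication-dependent genes reached 1 CPM and 10 reached 5 CPM. Together the histone genes took 0.201% of the counts in ASO-NC and 0.199% in ASO-1235. Variants supplied 74.4% (Wilson 95% interval 74.2 to 74.7) of these counts in ASO-NC and 74.0% (73.7 to 74.3) in ASO-1235, and these intervals overlap.

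**Figure D1:**
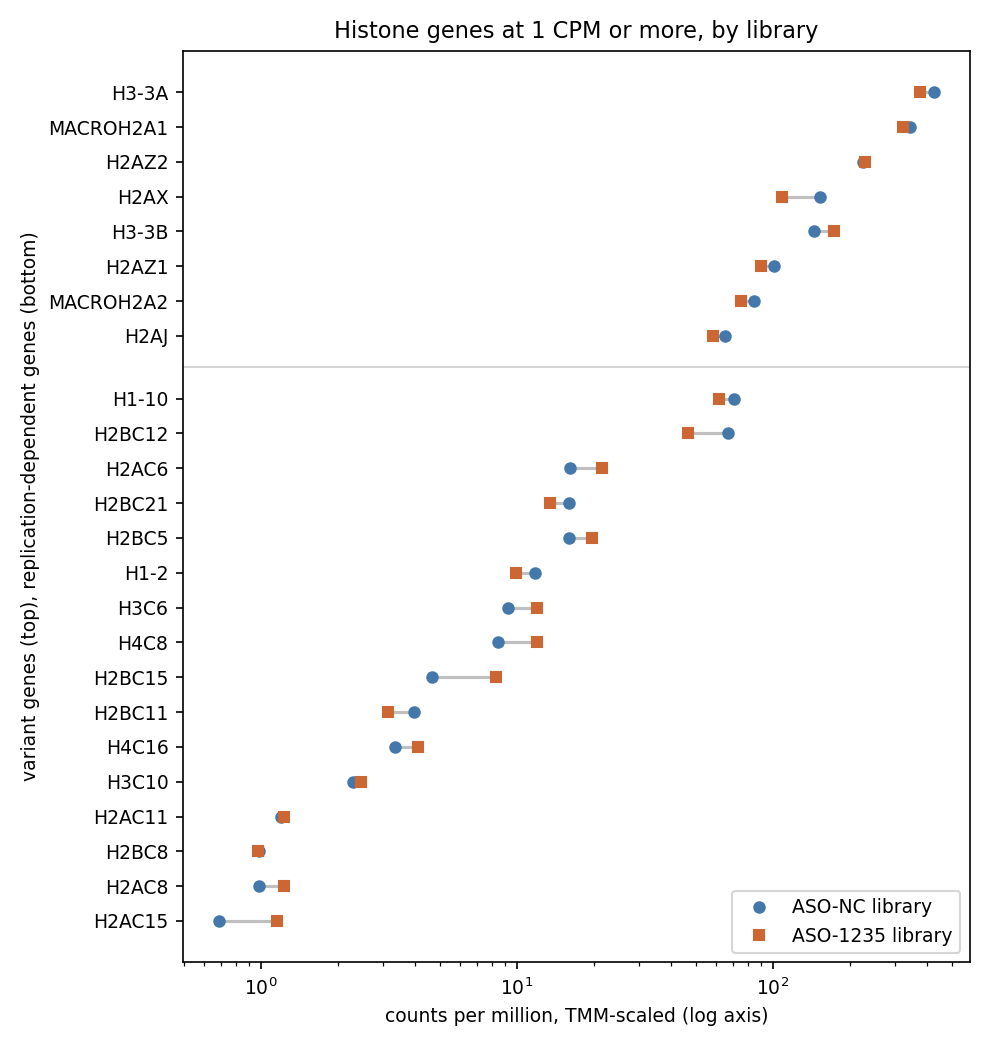
Level of the histone genes named in the text, each with at least 1 CPM in at least 1 library, in TMM-scaled CPM on a log axis, with circles for the ASO-NC library and squares for the ASO-1235 library. Variants (top) all lie above 50 CPM, and of the replication-dependent genes drawn (bottom) H1-10 does so in both libraries and H2BC12 in ASO-NC only.

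Of the replication-dependent genes, 15 had 0 counts in both libraries, 7 in ASO-NC only and 8 in ASO-1235 only. The 56 members under the minimum summed to 408 and 342 counts, a ratio of 1.002 (0.866 to 1.16). How far a gene model runs past the stop codon went with the counts. The 28 replication-dependent members whose GENCODE 29 model had at least 200 bases there had a median of 33 counts in ASO-NC and 32 in ASO-1235, and 13 of them reached 1 CPM. The 41 members with a shorter model had a median of 2 counts in either library, and 4 of them reached 1 CPM (H1-2, H2AC8, H2AC15 and H2BC12). The limit of 200 bases was chosen after the values were seen. The sources used here do not say which annotation the reads were counted on, and a model that stops early also offers less sequence to count on, so the length of the model and the amount of polyadenylated RNA cannot be told apart.

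**Figure D2:**
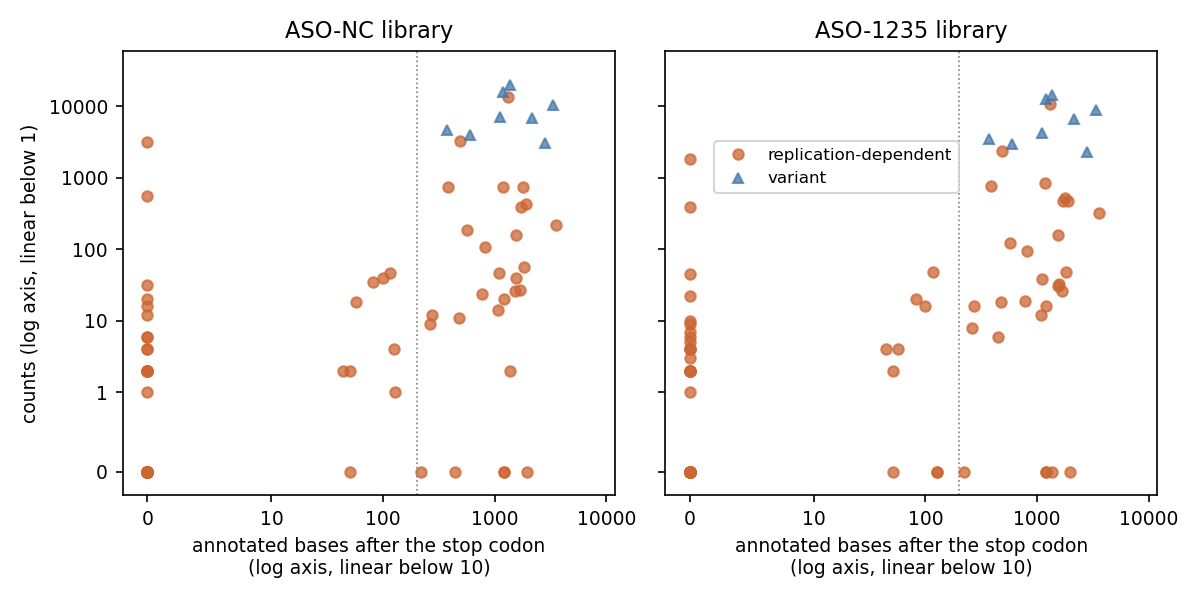
Counts of each histone gene in the ASO-NC library (left) and the ASO-1235 library (right) against the number of bases that GENCODE 29 annotates after its stop codon, with circles for replication-dependent genes, triangles for variants and a dotted line at 200 bases. Both axes are logarithmic with a linear part near 0, and in both libraries most circles left of the line lie under 10 counts.

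H2AX showed the lowest ratio of the variant genes. This gene encodes the H2A form that is phosphorylated at DNA double-strand breaks. It had 7148 counts in ASO-NC and 4234 in ASO-1235, which is 153 and 108 CPM, a ratio of 0.708 (0.682 to 0.736). The difference fell short of the 1.5-fold limit, and 4.73% of the genes tested had a lower ratio. Scaled by total count the ratio was 0.751, and with the trend on GC content and length removed its log2 ratio moved from −0.50 to −0.29. With that trend removed H3-3A was lower than H2AX, its log2 ratio moving from −0.19 to −0.31. Within the H2A variants, a comparison that needs no scaling between libraries, H2AX made up 15.8% (15.4 to 16.1) of the counts in ASO-NC and 12.3% (11.9 to 12.6) in ASO-1235.

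The pair of genes for H3.3, the H3 variant deposited outside replication, lay on opposite sides of 1. H3-3A had 19901 and 14634 counts (426 and 375 CPM), a ratio of 0.879 (0.861 to 0.898). H3-3B, which encodes the same protein, had 6773 and 6756 counts (145 and 173 CPM), a ratio of 1.19 (1.15 to 1.23), and was the variant with the highest ratio. Of the counts of both genes, H3-3B took 25.4% (24.9 to 25.9) in ASO-NC and 31.6% (31.0 to 32.2) in ASO-1235. Summed, the H3.3 genes were at 0.959 (0.942 to 0.976), and at 1.02 with total-count scaling. The annotated exons of both genes overlap those of other genes, so some of their reads may not be theirs alone.

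H2A.Z, the variant found at the nucleosomes flanking active promoters, is also encoded by a pair of genes. H2AZ1 had 4726 and 3503 counts (101 and 89.7 CPM), a ratio of 0.886 (0.848 to 0.926), and H2AZ2 had 10501 and 8966 counts (225 and 230 CPM), a ratio of 1.02 (0.993 to 1.05). The H2AZ1 share of the pair was 31.0% (30.3 to 31.8) in ASO-NC and 28.1% (27.3 to 28.9) in ASO-1235. The macroH2A genes, whose products carry a large extra domain and are known from silent chromatin, had like ratios. MACROH2A1 had 16026 and 12562 counts, a ratio of 0.937 (0.916 to 0.960). MACROH2A2 had 3928 and 2938 counts, a ratio of 0.894 (0.852 to 0.938). The intervals of the MACROH2A2 share, 19.7% (19.1 to 20.2) and 18.9% (18.3 to 19.6), overlap. H2AJ, an H2A variant with a modified C-terminal end, had 3044 and 2283 counts, a ratio of 0.897 (0.849 to 0.947). With the trend on GC content and length removed, the log2 ratios of MACROH2A1 and MACROH2A2 moved apart, from −0.093 and −0.161 to −0.259 and −0.047. That of H2AJ moved from −0.157 to −0.267. Those of H2AZ1 and H2AZ2 moved closer together, from −0.174 and 0.030 to −0.129 and −0.066, so that both lay below 0.

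**Figure D3:**
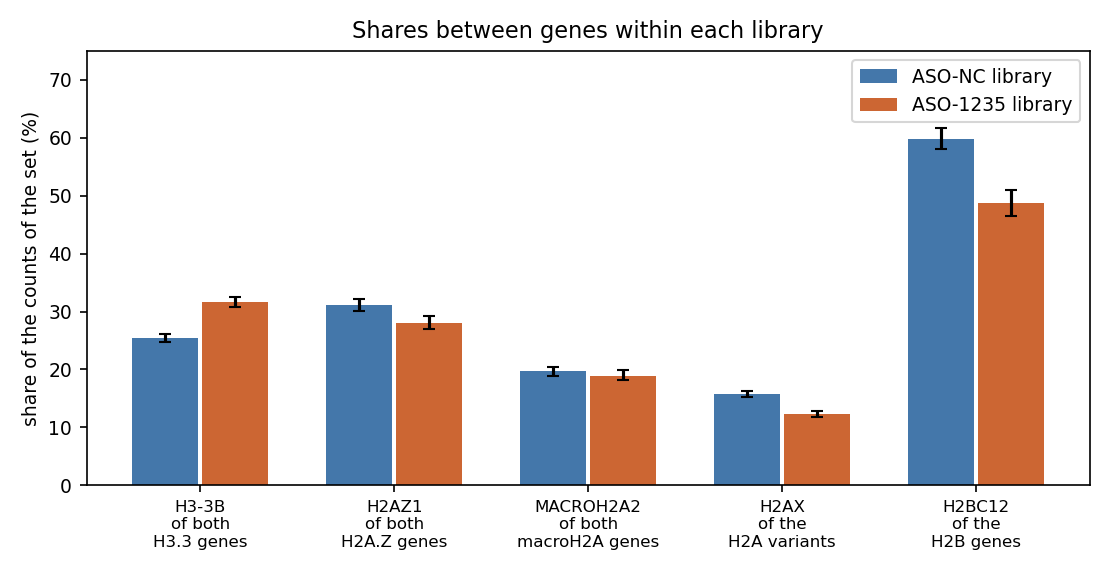
Share of one gene in the counts of its set within each library, in percent, with bars for the ASO-NC and ASO-1235 libraries and error bars for the Wilson 95% interval on halved counts. The H3-3B share is higher in ASO-1235, those of H2AZ1, H2AX and H2BC12 are lower, and the intervals of MACROH2A2 overlap.

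Taking the 8 variants together, 6 had a ratio below 1 and 2 above, with TMM and with total-count scaling alike. Their median log2 ratio was −0.16 (members from −0.50 to 0.25), against 0.00 for all genes tested, and 0 were called higher or lower. Their summed counts, 72047 and 55876, gave a ratio of 0.927 (0.917 to 0.938), or 0.984 with total-count scaling.

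The replication-dependent genes were spread more widely, with 10 ratios above 1 and 7 below, and a median log2 ratio of 0.10 (members from −0.51 to 0.83). With total-count scaling 5 were below 1. Here 2 of 17 were called higher and 0 lower, beside 6.40% and 2.95% of all genes tested. H2AC15, H2AC8 and H2BC8 reached the minimum only in ASO-1235, and 0 members reached it only in ASO-NC, so these counts and the median lean on the minimum: H2AC15 (32 and 45 counts) entered, and H2AC13 (39 and 16 counts) did not. The median lay 0.26 above that of the variants. This distance depends on which low genes enter: with the minimum taken on TMM-scaled sizes, a setting that was run first, H2BC8 drops out, 16 genes remain, and the median is 0.20 and the distance 0.36. The summed counts, 24734 and 19611, gave 0.948 (0.930 to 0.966), which turned to 1.01 with total-count scaling.

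**Figure D4:**
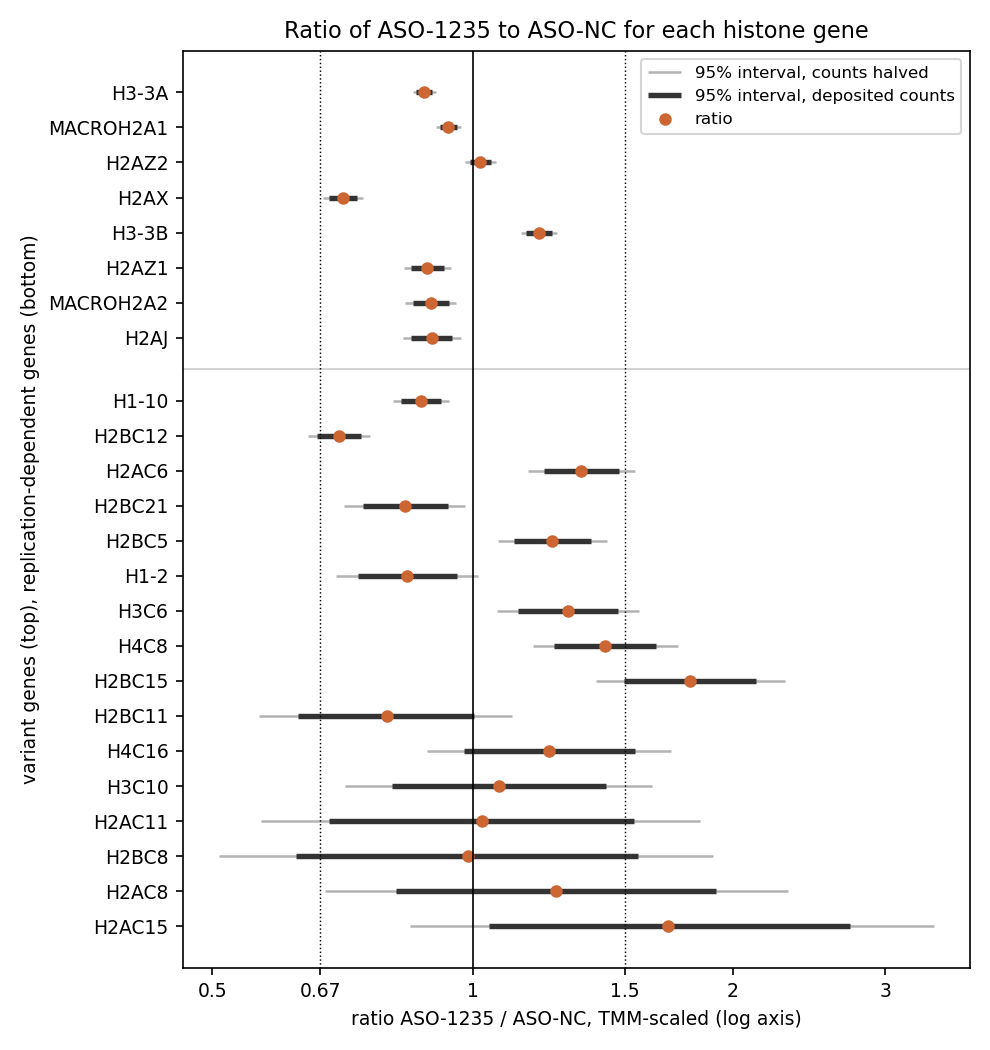
Ratio of the ASO-1235 to the ASO-NC library for the histone genes named in the text, on a log axis, with thick lines for the exact 95% interval on deposited counts, thin lines for that on halved counts, a solid line at 1 and dotted lines at a 1.5-fold difference in either direction. H2BC15 and H2AC15 lie past the upper dotted line and no gene drawn lies past the lower one.

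Linker histones bind DNA between nucleosomes. The linker gene H1-10 had 3296 and 2403 counts (70.6 and 61.5 CPM), a ratio of 0.872 (0.827 to 0.919), and with the trend on GC content and length removed its log2 ratio moved from −0.20 to 0.00. H1-2, a clustered linker gene, had 552 and 388 counts, a ratio of 0.841 (0.736 to 0.959). On halved counts the interval reached 1.01, and with the trend removed its log2 ratio moved from −0.25 to −0.06. Per kilobase of annotated exon, H1-10 stood at 46.8 and 40.8 CPM and H1-2 at 18.4 and 15.5. The variants ran from H3-3A at 136 and 119 and H2AX at 94.8 and 67.2 down to MACROH2A1 at 19.4 and 18.1 and H2AJ at 19.4 and 17.4, and 5 of the 8 stood below H1-10 in both libraries.

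H2B genes, which encode the partner of H2A in the nucleosome, differed most among themselves. H2BC12 had 3122 and 1829 counts (66.9 and 46.8 CPM), a ratio of 0.701 (0.661 to 0.742), the lowest of the members tested, and 4.47% of all genes tested were lower. Its GENCODE 29 model covers only the coding part, 381 bases, of which 62.3% of 64-base windows also occur in other genes, so its level per length and the origin of its reads are uncertain. H2BC12 took 59.8% (58.5 to 61.2) of all H2B counts in ASO-NC and 48.8% (47.2 to 50.4) in ASO-1235. H2BC21 had 750 and 524 counts, a ratio of 0.835 (0.746 to 0.935). H2BC11 had 185 and 123 counts, a ratio of 0.795 (0.628 to 1.004), an interval that includes 1. H2BC8 had 46 and 38 counts, a ratio of 0.988 (0.626 to 1.55).

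The 2 other H2B genes tested lay above 1. H2BC5 had 745 and 770 counts (15.95 and 19.7 CPM), a ratio of 1.24 (1.12 to 1.37). H2BC15 had 218 and 325 counts (4.67 and 8.32 CPM), a ratio of 1.78 (1.497 to 2.13), the highest of the members tested, and it was called higher. On halved counts its interval was 1.39 to 2.29. The H2B genes summed to 5217 and 3750 counts, a ratio of 0.860 (0.824 to 0.897). Without H2BC12 the other 17 summed to 2095 and 1921 counts, a ratio of 1.10 (1.03 to 1.17), so the direction of the sum rests on that gene.

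The 4 replication-dependent H2A genes tested had ratios above 1, but H2AC15 and H2AC8 reached the minimum only in ASO-1235, the library where they were higher. H2AC6 had 751 and 839 counts (16.1 and 21.5 CPM), a ratio of 1.34 (1.21 to 1.48). H2AC15 had 32 and 45 counts (0.685 and 1.15 CPM), a ratio of 1.68 (1.04 to 2.73), and was called higher, but on halved counts the interval was 0.847 to 3.42. H2AC11, with 56 and 48 counts, was at 1.02 (0.682 to 1.53), and H2AC8, with 46 and 48, at 1.248 (0.815 to 1.91), and both intervals include 1. Summed, all 17 H2A genes of the class had 950 and 1022 counts, a ratio of 1.29 (1.18 to 1.41). H2AC6 supplied 751 and 839 of these counts, and the sum without it was not computed.

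Genes for H3 and H4, which form the core of the nucleosome, were also above 1 where they were tested. H3C6 had 433 and 467 counts (9.27 and 12.0 CPM), a ratio of 1.29 (1.13 to 1.47), and H3C10 had 107 and 96, a ratio of 1.07 (0.806 to 1.43). H4C8 had 395 and 470 counts (8.46 and 12.0 CPM), a ratio of 1.42 (1.24 to 1.63). With total-count scaling it was at 1.51 and was called higher as well. H4C16 had 156 and 160 counts, a ratio of 1.23 (0.978 to 1.54). The family sums were 1.23 (1.10 to 1.37) for H3 and 1.32 (1.19 to 1.48) for H4, and both stayed above 1 on halved counts and with total-count scaling. H3C6 supplied 433 of the 623 and 467 of the 640 H3 counts, and H4C8 395 of the 628 and 470 of the 696 H4 counts. Each sum thus rests mainly on 1 gene, and the sums without that gene were not computed.

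The sequences before the starts of H2BC12 and H2BC15 are shown because these genes mark the ends of the range. They come from the RefSeq promoter table (GRCh38.p14), stop at the base before the start of transcription, and are given on the strand of the gene. Capitals mark the octamer ATTTGCAT, which binds OCT1 and is known from H2B promoters. The stretch before H2BC15 covers the bases between its start and that of H2AC15, which is transcribed the opposite way.
H2BC12, chr6:27146859-27147108, minus strand: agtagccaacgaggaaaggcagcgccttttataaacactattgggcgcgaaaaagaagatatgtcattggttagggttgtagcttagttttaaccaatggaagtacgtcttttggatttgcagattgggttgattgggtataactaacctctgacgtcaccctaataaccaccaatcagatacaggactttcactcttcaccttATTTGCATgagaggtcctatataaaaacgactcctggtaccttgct
H2BC15, chr6:27838376-27838568, plus strand: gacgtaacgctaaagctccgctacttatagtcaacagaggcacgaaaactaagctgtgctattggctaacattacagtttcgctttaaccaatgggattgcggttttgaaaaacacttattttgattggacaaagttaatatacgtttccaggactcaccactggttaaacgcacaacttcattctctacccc
In H2BC12 the octamer begins 46 bases before the start. A RefSeq promoter window, 250 bases before to 50 after the start, was matched for 75 of the 81 members and searched on both strands. The octamer was in 14 of 18 H2B, 11 of 16 H2A, 1 of 11 H3, 0 of 9 H1 and 0 of 13 H4 windows, in 1 of 8 variant windows (H3-3B), and in 1.77% of all 35116 windows. CCAAT was in 83.6% of the replication-dependent windows and 34.6% of all, and TATAAA in 64.2% and 11.5%. Of the 6 H2B genes tested, the 4 with the octamer (H2BC12, H2BC11, H2BC21 and H2BC8) had ratios of 0.701 to 0.988 and the 2 without it (H2BC5 and H2BC15) had 1.24 and 1.78. This division was noticed after the values were seen, and with total-count scaling H2BC8 was at 1.05. The H2B genes under the minimum were mixed. H2BC13, without the octamer, had 35 and 20 counts (0.683). H2BC9 (1.15), H2BC18 (1.43), H2BC4 (1.59) and H2BC6 (1.96), which hold it, lay above 1 on 11 to 31 counts. H2BC10, which holds it, had 0 and 2 counts. H2BC7 (0.947) and H2BC17 (0.673), which also hold it, lay below 1. All of these intervals include 1, so these genes do not settle whether the division extends to them. Among the H2A genes tested, H2AC6 holds the octamer and lies above 1. H2AC8 and H2AC11 hold it and lie above 1 as well, but their intervals include 1. H2AC8 also reached the minimum only in ASO-1235, the library where it was higher.

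Many H2A and H2B genes face each other across a short shared region. Among the 75 members with a RefSeq promoter window, 13 pairs with starts within 1000 bases on opposite strands were found. H2AC12, which lies beside H2BC12 on the other strand, had no such window and was not searched. It had 6 and 2 counts. In 3 of them both genes were tested. H2AC15 and H2BC15, with 194 bases between their starts, are the 2 genes called higher. The annotated model of H2BC15 overlaps the exons of H2AC15, and the sources used here do not say whether reads were counted by strand, so reads of the pair cannot be told apart. H2BC11 and H2AC11 were at 0.795 and 1.02, and H2BC8 and H2AC8 at 0.988 and 1.248. In a further pair H2AC6 had 751 and 839 counts while its partner H2BC4 had 12 and 16.

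Genes that make, process and degrade histone mRNA were read from lists of known factors. For comparison, 49.9% of all genes tested had a ratio below 1 (38.6% with total-count scaling), and 6.40% were called higher and 2.95% lower. Of 26 genes of histone mRNA 3′ end processing tested, 0 were called, 19 had a ratio below 1 (14 with total-count scaling), and the median log2 ratio was −0.09. SLBP had 3063 and 2468 counts, a ratio of 0.964 (0.913 to 1.02), an interval that includes 1. Low ratios with narrow intervals were those of CPSF4 at 0.727 (0.6703 to 0.787), SRRT at 0.751 (0.727 to 0.777) and CPSF1 at 0.785 (0.760 to 0.810), genes of the cleavage complex and, for SRRT, of the cap-binding pathway. ZNF473 and LSM10, parts of the U7 machinery specific to histone mRNA, were at 0.755 (0.686 to 0.831) and 0.782 (0.697 to 0.878). LSM11, also of the U7 machinery, lay above 1, with 220 and 200 counts, a ratio of 1.09 (0.893 to 1.32), an interval that includes 1. CSTF3, CPSF2 and PCF11, all of the cleavage machinery, were at 1.23, 1.17 and 1.15. With the trend on GC content and length removed, their log2 ratios moved from 0.30, 0.23 and 0.20 to 0.16, −0.04 and 0.02. Those of CPSF4, SRRT and CPSF1 moved from −0.46, −0.41 and −0.35 to −0.27, −0.26 and −0.18. Those of ZNF473, LSM10 and LSM11 went from −0.405, −0.354 and 0.120 to −0.411, −0.155 and −0.001.

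Of 24 histone mRNA decay genes tested, 1 was called. XRN1, the cytoplasmic exonuclease that degrades RNA from the 5′ end, had 4050 and 5248 counts (86.7 and 134 CPM), a ratio of 1.55 (1.49 to 1.61), called higher. With the trend removed its log2 ratio moved from 0.63 to 0.34, which ends the call, and 1 of 24 is near the share over all genes tested. DCP2, the decapping enzyme that acts before it, was at 1.45 (1.34 to 1.56), and LSM7, of the LSM ring on the 3′ end of decaying RNA, at 0.683 (0.626 to 0.745). With the trend removed the log2 ratios of DCP2 and LSM7 moved from 0.53 and −0.55 to 0.25 and −0.33. The median of this list was −0.02. Of 16 genes of histone transcription, 0 were called and 10 lay below 1. NPAT, the coactivator at histone gene clusters, had 1183 and 1083 counts, a ratio of 1.09 (1.01 to 1.19), which on halved counts included 1, and with the trend removed its log2 ratio turned from 0.13 to −0.12. E2F1 was at 0.714 (0.653 to 0.780), CCNE1 (cyclin E1) at 0.761 (0.665 to 0.869), and CRAMP1 at 1.33 (1.21 to 1.46). With the trend removed their log2 ratios moved from −0.485, −0.394 and 0.409 to −0.306, −0.288 and 0.490.

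Histone chaperones hand histones to DNA, and 23 of the 32 tested lay below 1 (20 with total-count scaling), beside 49.9% (38.6%) of all genes tested. Of the chaperones 0 were called, beside 6.40% higher and 2.95% lower of all genes, and their median was −0.15. TONSL, which binds newly made histones at forks, was at 0.710 (0.677 to 0.745), MCM2 at 0.759 (0.724 to 0.797) and CHAF1A at 0.769 (0.716 to 0.826). ASF1B was at 0.752 (0.669 to 0.844), while its paralog ASF1A lay above 1, at 1303 and 1578 counts, or 1.45 (1.34 to 1.56). ATRX, which helps place H3.3, was at 1.252 (1.204 to 1.30), and its log2 ratio moved from 0.32 to 0.02 with the trend removed. Those of TONSL, MCM2 and CHAF1A moved from −0.493, −0.397 and −0.378 to −0.364, −0.242 and −0.229. Those of ASF1B and ASF1A moved from −0.411 and 0.534 to −0.239 and 0.291. Of 18 tested genes of the complexes that exchange H2A.Z and macroH2A, 0 were called and 12 lay below 1, with DMAP1 the lowest at 0.734 (0.674 to 0.798). CENPA, the centromeric H3 variant and the one tested gene of the histone genes outside the symbol rule, had 897 and 738 counts, a ratio of 0.984 (0.891 to 1.09).

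**Figure D5:**
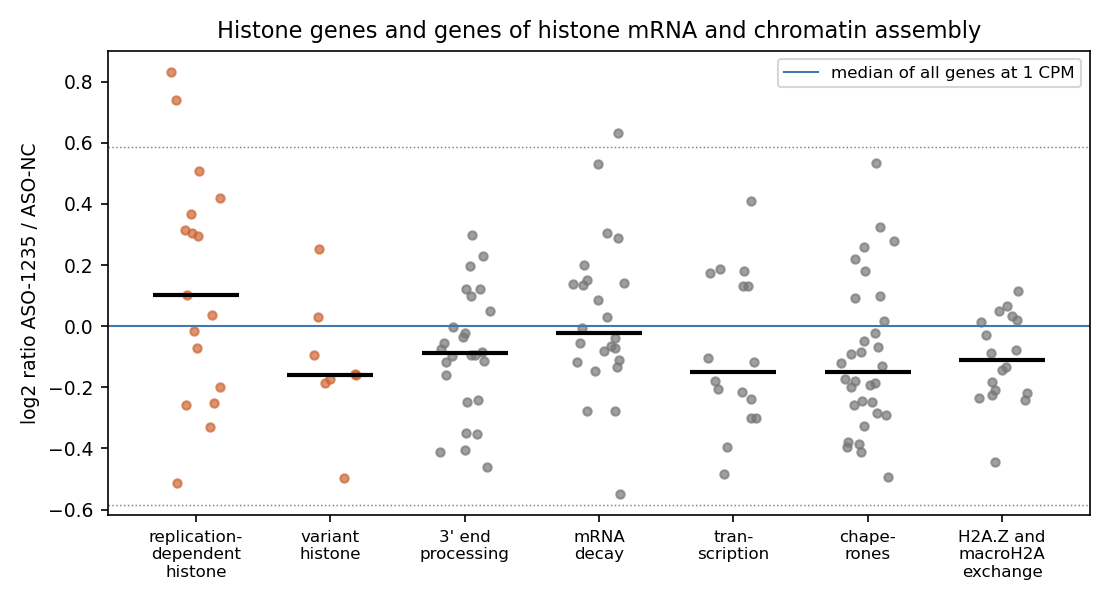
Log2 ratio of ASO-1235 to ASO-NC for each tested gene of the histone classes and of 5 lists of histone mRNA and chromatin assembly genes, with bars at the medians, a horizontal line at the median of all genes tested and dotted lines at 1.5-fold. The replication-dependent genes have a median of 0.10 and the variants of −0.16, and the lists have medians from −0.15 to −0.02.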

How the data were processed

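The values are gene counts deposited by the authors for both libraries. STAR 2.7.11a, featureCounts 2.0.6 and hg38 come from the submitters' processing notes, and the sources used here do not give the annotation, strand setting or filters. Whole numbers with unequal totals (48092494 and 37916307) show that the counts were not normalized. The 3 lines without counts were left out.

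Library sizes were scaled by TMM (edgeR 4.0.16). Each ratio has a 95% interval from the exact Clopper-Pearson method, conditional on the 2 counts' sum, and log2 ratios use a prior count of 0.5. Medians cover genes at 1 CPM or more. That minimum was first taken on TMM-scaled sizes and then, with both outcomes seen, on library totals, as in an earlier analysis of these data. Members, lists and settings were chosen with earlier results of these data known. Every member at 1 CPM was named, except 1 that is not reported here. From each list, the genes named were those called, SLBP and NPAT, and up to 3 at each end by the interval bound nearest to 1. ZNF473, LSM10, LSM11 and ASF1B were added after their values were seen. Shares have Wilson intervals. With no replicates, no test across samples was made. The ratio and call steps were tested on simulated data. Alternatives were other scalings (DESeq2 1.42.0 size factors, upper quartile, total count), minimums, fold limits, prior count, halved counts, a GC and length trend (known for 97.7% of the genes tested) and other memberships. Sequences came from GENCODE 29 and RefSeq (GRCh38.p14). Work was done with pandas 2.3.3, scipy 1.17.1 and numpy 2.4.6 under Python 3.11.15.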

Additional observations from a re-analysis of the deposited data

How the results depend on the processing

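Of 97 recomputed values, 82 stayed within the interval of the reported value or, for counts of calls, within 1.5 times. The summed ratio of the replication-dependent genes, 0.948, reversed to 1.006 with total-count scaling, and moved to 0.973 with another division of the members between the classes and to 0.984 without H2BC12. That of the variants, 0.927, moved to 0.984 with total-count scaling, to 0.895 without members whose exons overlap another gene, and to 0.952 without H2AX. The 2 of 17 replication-dependent genes called higher became 5 of 58 with no minimum and 5 of 17 at a fold limit lower than 1.5. They became 1 of 10 at 5 CPM, 1 of 17 on halved counts, 0 of 17 at 2-fold and 0 of 14 without overlapping members. Those called lower went from 0 of 17 to 3 of 58 with no minimum and 1 of 17 at the lower fold limit (H2BC12). Variants called lower went from 0 to 1 of 8 at the lower fold limit (H2AX). The median of the replication-dependent genes ranged from 0.07 to 0.29 and that of the variants from −0.19 to −0.07, so their signs held in every setting run.

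Over all genes, 919 were called higher and 423 lower of 14352 tested. With no minimum the calls were 2382 and 1102 of 29875, and at 5 CPM 279 and 101 of 10757. Of the same 14352 genes, 363 and 74 were called at 2-fold, 2103 and 1563 at the lower fold limit, and 746 and 287 on halved counts. With total-count scaling the calls were 1235 and 284 of 14352, and the median of all genes was 0.09. Leaving out H2BC12, H2AX or H2BC15, and the minimum on TMM-scaled sizes (881 higher and 433 lower of 14291), were chosen after seeing the data. No paired analysis was possible because each group holds 1 library. Depth limits the genes under 100 counts: the interval of H2AC8, with 46 and 48 counts, runs from 0.815 to 1.91.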

Other observations

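Among the 56 members under 1 CPM, 6 had an interval on deposited counts that left out 1, and these were chosen here after their values were seen. The share of all genes under 1 CPM with such an interval was not computed, so the 6 cannot be weighed against it. H3C3, a replication-dependent H3 gene, had 22 counts in ASO-NC and 2 in ASO-1235, a ratio of 0.109 (0.0124 to 0.442), and it was the 1 gene of the 6 whose interval on halved counts (0.00253 to 0.748) also left out 1. The linker gene H1-4 had 18 and 4 counts, and H2AC13 had 39 and 16, a ratio of 0.491 (0.256 to 0.898). H2AC25, H3C1 and H3C12 had 0 counts in ASO-NC and at most 6 in ASO-1235. The H3 pseudogene H3P6 had 773 and 673 counts, a ratio of 1.04 (0.938 to 1.16), more counts than any replication-dependent H3 gene.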
